A study of Mus musculus with 28 samples.

Results

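The clustered protocadherin genes were examined for acetylation of histone H3 at lysine 27 (H3K27ac), which is found at promoters and enhancers in use, in mouse cranial neural crest cells. The genes were the protein-coding genes on chromosome 18 of GRCm38 whose symbol starts with Pcdha, Pcdhb or Pcdhg, which gave 57 of 21887 protein-coding genes on the main chromosomes. They comprised 14 Pcdha, 22 Pcdhb and 21 Pcdhg genes. The choice used gene symbols and position only. The series holds 28 libraries of cranial neural crest cells, inputs included, from chromatin immunoprecipitation experiments in 25 groups, and the 1 interval list used here rests on 4 of them. Those were H3K27ac libraries of wild-type embryos at E10.5 (embryonic age in days), from the cell populations labelled FNP, Mx, Md and PA2, with 1 library each. Per the labels the cells were collected by fluorescence-activated sorting; the reporter or marker used for sorting was not given in the sources used here. The authors merged the 4 libraries before calling intervals, so no value below has a replicate, none belongs to 1 population, and no test between populations or conditions was possible.

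Clustered protocadherins are cell-surface adhesion proteins that bind identical copies on neighbouring cells. They are best known in neurons, where each cell uses a different combination of isoforms and so recognises its own branches. In the Pcdha and Pcdhg clusters each gene has its own promoter and its own large first exon, called the variable exon, which encodes the outer part of the protein and is spliced to constant exons shared by the whole cluster. Pcdhb genes lack such shared constant exons. The last genes of the Pcdha and Pcdhg clusters, called c-type (Pcdhac1, Pcdhac2, Pcdhgc3, Pcdhgc4 and Pcdhgc5), differ in sequence from the other variable exons and are used more constantly between neurons. Variable promoters are bound by the insulator protein CTCF and respond to enhancers near the 3′ ends of the clusters.

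The called intervals were unevenly divided among the 3 clusters. An interval lay within 1 kb of the annotated start of 15 of 21 Pcdhg genes and of 1 of 14 Pcdha genes, and 0 of 22 Pcdhb genes had one. Over all 57 genes this was 16 (28.1%), against 62.0% of the other protein-coding genes whose strand is in the annotation (10847 of 17492). The Pcdhg share of 71.4% was thus close to that of genes at large, while the Pcdha share of 7.14% and the Pcdhb share of 0% were far below it. The windows around the 57 starts did not share intervals. The marked Pcdhg starts had low scores for a marked start, and the highest score of the clusters was that of Pcdhgc3. A score is the authors' value for each interval; by the convention of the caller it grows with the significance of the read pile-up, and it is used here only to rank and describe intervals within this list.

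**Figure D1:**
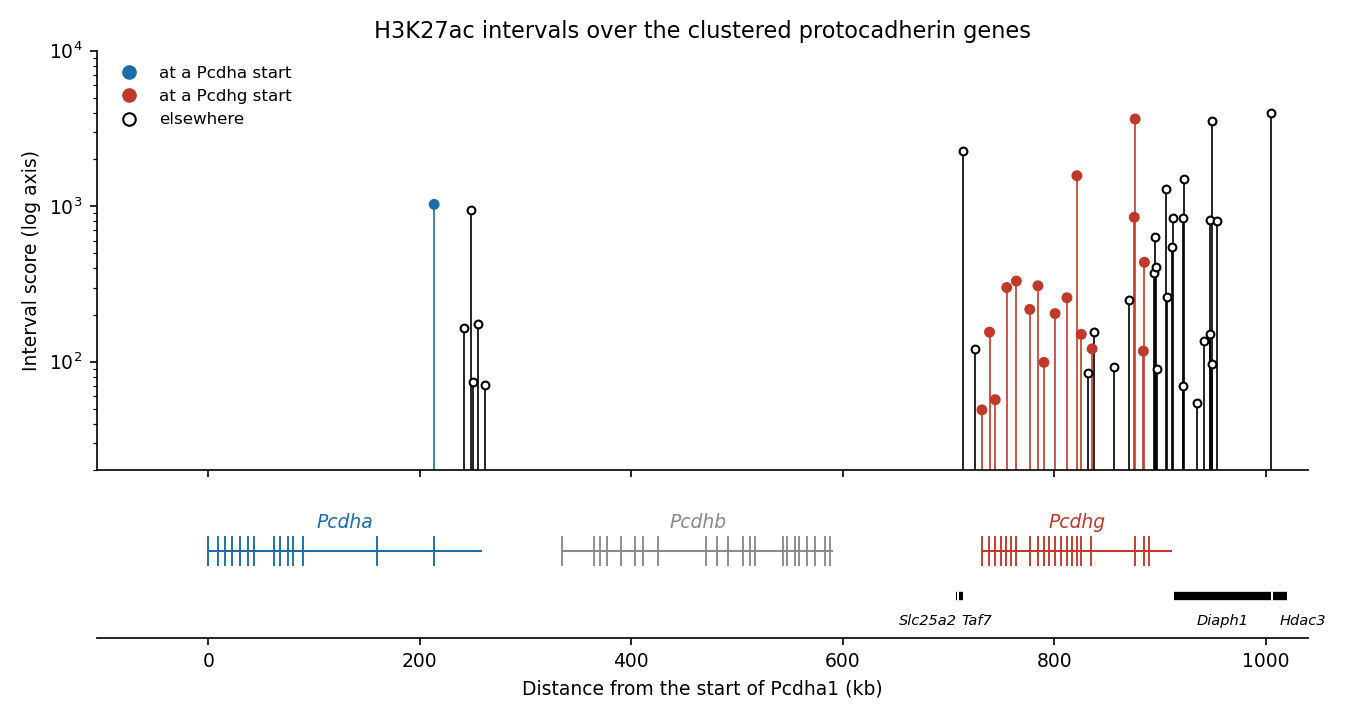
The upper panel plots each H3K27ac interval from 100 kb before to 100 kb after the clusters by the distance of its midpoint from the start of Pcdha1 (kb) and its score (log axis); filled points lie within 1 kb of a Pcdha (blue) or Pcdhg (red) start, open points elsewhere. The lower panel draws gene starts as ticks, and the 14 Pcdha starts have 1 interval, the 22 Pcdhb starts 0 and the 21 Pcdhg starts 17.

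From 100 kb before Pcdha1 to 100 kb after the Pcdhg cluster (chromosome 18, 36830285 to 37941873) the list held 48 intervals. This equals 43.2 per Mb, against 53.4 per Mb over chromosome 18 and 51.5 per Mb over chromosomes 1 to 19. Fixed adjoining tiles of the same length over those chromosomes (2148 tiles) held a median of 56 intervals, with quartiles of 24 and 86. The region as a whole therefore lay within the middle of the range, but its intervals were unevenly spread. The Pcdhg cluster held 28 intervals in 180.1 kb (155 per Mb), the Pcdha cluster 5 in 258.6 kb (19.3 per Mb) and the Pcdhb cluster 0 in 256.4 kb. Of the 48 intervals, 18 touched the start window of a protocadherin gene, 17 of them in the Pcdhg cluster and the other at Pcdhac2.

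The Pcdha genes encode the isoforms first found as cadherin-related neuronal receptors. None of the 12 genes Pcdha1 to Pcdha12 had an interval within 1 kb of its start, and the nearest interval lay between 123 and 170 kb away. Pcdhac1, the first c-type gene of the cluster, also had none, with the nearest interval 53.3 kb away. Pcdhac2, the last gene of the cluster, which is known in mouse for its role in the tiling of serotonergic axons, had an interval of 1098 bp with a score of 1028 (37143417 to 37144514). This interval covered the start base itself, from 261 bp before it to 836 bp after it. The 13 unmarked Pcdha starts lay in a single stretch of 341 kb without any interval (36802099 to 37143416), which began before the cluster and ended at the Pcdhac2 interval.

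The variable exon starts and the 3′ part of the Pcdha cluster differed. The stretch of 44.2 kb from after the Pcdhac2 window to the end of the cluster, which holds the constant exons, had 4 intervals, with scores of 164, 946, 74 and 175 in their order along the chromosome. The strongest of them was 1566 bp wide (37177778 to 37179343), began 34.1 kb after the Pcdhac2 start and had a score close to that of the Pcdhac2 start. A weak interval with a score of 71 followed 3.35 kb past the end of the cluster. Positions of single exons and of known enhancers were not in the annotation used here, so these intervals were not assigned to a constant exon or an element.

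The Pcdhb genes, intronless genes whose product has a short inner tail, had no interval at either end and none between them. The 22 genes lay in a stretch of 451 kb without an interval (37192428 to 37643684), from just past the Pcdha cluster to the upper end of Taf7. Their starts were between 72.6 and 222 kb from the nearest interval, with a median of 152 kb. Because the whole cluster was empty, this count did not depend on the window, on a score limit or on which gene end was taken as the start. How reads that match several near-identical genes were treated in alignment is not given in the sources used here. The depth is unknown, and no mappability was available. The part of these limits in an empty stretch over a family of similar genes was not tested. Nor was their part in the unmarked Pcdha and Pcdhg starts or in the low scores at marked Pcdhg starts.

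Between the Pcdhb and Pcdhg clusters lie 2 genes that are not protocadherins. Taf7, which encodes a subunit of the general transcription factor TFIID, had an interval with a score of 2258 at its upper end (37643685 to 37644716), and Slc25a2, a mitochondrial ornithine carrier gene next to it, had none at either end. An interval with a score of 121 lay between Taf7 and Pcdhga1.

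The Pcdhg cluster alternates genes of the A and B types before its 3 c-type genes. Intervals lay at 9 of 12 A-type starts, 4 of 6 B-type starts and 2 of 3 c-type starts. Among the A-type genes the highest score at the start was 49 at Pcdhga1, 155 at Pcdhga2, 57 at Pcdhga3, 300 at Pcdhga4 and 330 at Pcdhga5. It was 217 at Pcdhga6, 308 at Pcdhga7, 150 at Pcdhga11 and 121 at Pcdhga12. Scores of 217 and above were found at the 4 A-type genes Pcdhga4 to Pcdhga7, with the unmarked Pcdhgb2 between Pcdhga4 and Pcdhga5. The lower A-type scores stood at Pcdhga1 to Pcdhga3 and at Pcdhga11 and Pcdhga12. Pcdhga8 to Pcdhga10, the next A-type genes after Pcdhga7, had no interval at the start. Among the B-type genes the highest score at the start was 99 at Pcdhgb4, 204 at Pcdhgb5, 258 at Pcdhgb6 and 1571 at Pcdhgb7. Pcdhgb7 (37751616 to 37752085) thus stood apart from the other 12 marked A- and B-type starts, whose scores ran from 49 to 330 with a median of 179.5.

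No interval lay within 1 kb of Pcdhgb1, Pcdhgb2, Pcdhga8, Pcdhga9, Pcdhga10 or Pcdhgc5. These genes were scattered among marked ones. Their nearest intervals were between 3.62 and 5.23 kb away, a distance like that between neighbouring starts of the cluster, whose median was 5.37 kb. No gene lay near the limit of the window. The farthest marked gene by its nearest interval edge was Pcdhga12 at 472 bp, and the closest unmarked one was Pcdhgc5 at 3.62 kb.

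**Figure D2:**
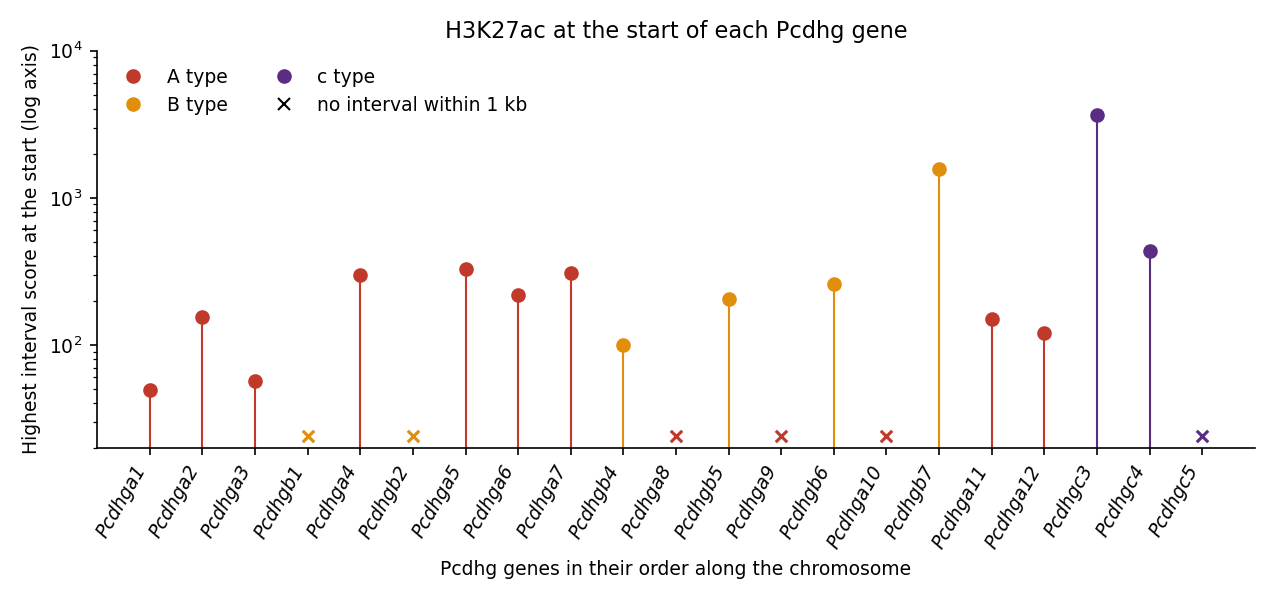
For each of the 21 Pcdhg genes, in their order along the chromosome, the plot gives the highest score of an H3K27ac interval within 1 kb of the start (log axis), with colours for A-, B- and c-type genes; crosses mark the 6 genes with no such interval and carry no value. Most variable genes sit between 49 and 330, with Pcdhgb7 at 1571 and Pcdhgc3 at 3639 above them.

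The c-type genes carried the 2 widest intervals at any start of the clusters. Pcdhgc3, a widely expressed isoform known for acting on Wnt signalling through Axin1, had an interval of 1098 bp with a score of 3639 (37806394 to 37807491) and another with a score of 850 just upstream (37805899 to 37806238). Pcdhgc4, the isoform needed for interneuron survival in mouse, had scores of 436 downstream and 117 upstream of its start. Pcdhgc5, which appears late in neuronal development, had none. With Pcdhac2 this made 3 of 5 c-type genes, a share near the 62.0% of other protein-coding genes with a known strand. Their top scores were 1028, 3639 and 436, and the median of 1028 rests on 3 genes. The A- and B-type Pcdhg genes, marked in 13 of 18, had a median top score of 204. The c-type genes come from both the Pcdha and Pcdhg clusters, and the variable genes Pcdha1 to Pcdha12 were marked in 0 of 12. All 3 marked c-type genes had higher scores than every marked A- or B-type gene other than Pcdhgb7.

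The intervals at the A- and B-type Pcdhg starts were narrower than those at other marked starts and centred on the gene side of the start. They were not narrow for the list, whose median interval width was 271 bp. Widths at starts of like score were not compared. At the 13 marked A- and B-type genes the interval was 160 to 472 bp wide (median 334 bp), and at other protein-coding genes with a marked start the median width was 823 bp (quartiles 586 and 1109 bp). The midpoint lay downstream of the start in 13 of 13 genes, at 148 to 638 bp (median 231 bp). At the other marked genes the midpoint was downstream in 80.7%, with a median of 320 bp. The interval covered the start base at 2 of the 13 genes, Pcdhga7 and Pcdhgb7, against 46.4% of the other marked genes. Pcdhga12 was the exception in position, with its interval beginning 472 bp after the start, whereas at the other 12 genes it began between 29 bp before and 168 bp after it.

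**Figure D3:**
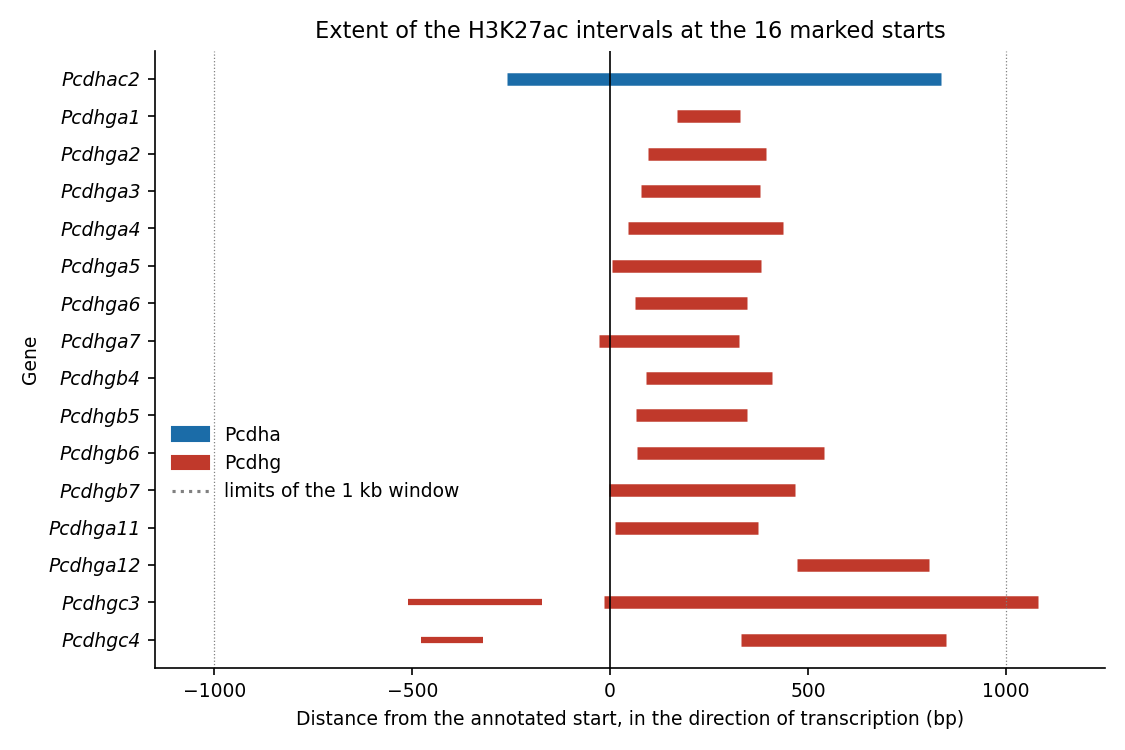
Horizontal bars show, to scale, where the H3K27ac intervals lie around the start of each of the 16 marked genes (bp, in the direction of transcription), in blue for Pcdha and red for Pcdhg; thick bars are the interval with the highest score and thin bars a second interval. At the A- and B-type genes the bars begin between 29 bp before and 472 bp after the start and end within 805 bp of it, while Pcdhac2 and Pcdhgc3 have bars of 1098 bp.

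Scores at the marked Pcdhg variable starts were at the low end for marked starts. Their median of 204 compares with 2687 at other marked starts (quartiles 872 and 4908), of which 10.4% had a score of 204 or less. Pcdhac2 and Pcdhgb7 also lay in the lower part, since 72.5% of other marked starts scored at least as high as Pcdhac2 and 64.8% at least as high as Pcdhgb7. Pcdhgc3 lay above the median of marked starts, with 38.0% scoring at least as high.

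**Figure D4:**
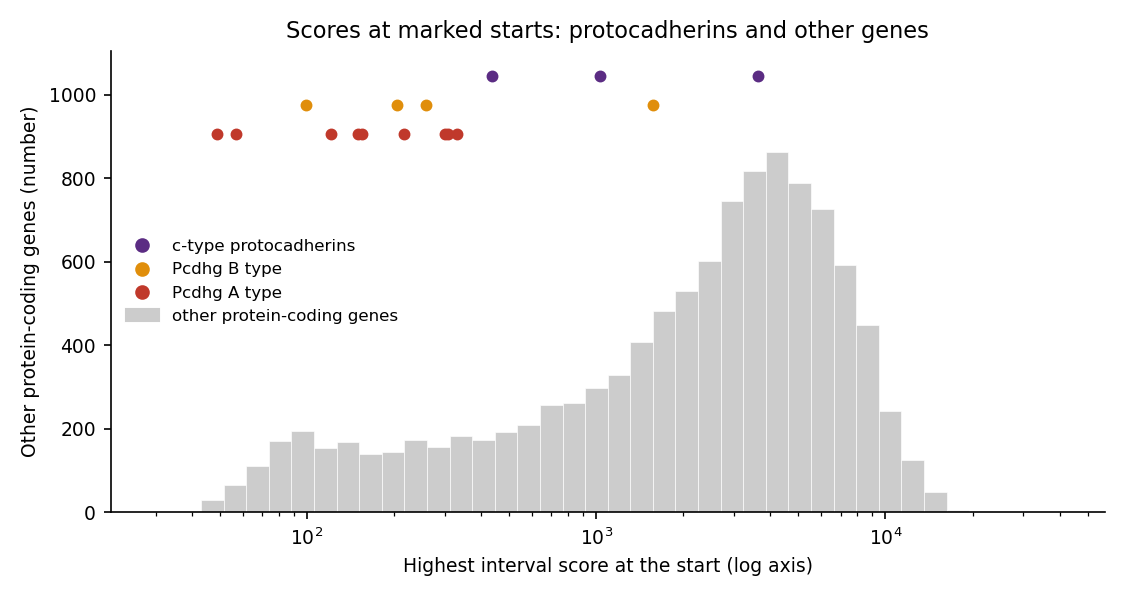
Grey bars count the other protein-coding genes with a marked start by the highest interval score at that start (log axis), and points above them show the 16 marked protocadherins by type. The A-type points lie between 49 and 330, left of most grey bars, and the c-type points at 436, 1028 and 3639.

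The 3′ part of the Pcdhg cluster was more densely acetylated than its variable part. From after the Pcdhgc5 window to the end of the cluster, a stretch of 21.3 kb that holds the constant exons, there were 7 intervals covering 21.7% of the sequence. The variable part from Pcdhga1 to before Pcdhgc3 had 17 intervals covering 3.90% of 144.6 kb, and the corresponding 3′ stretch of the Pcdha cluster was covered to 6.30%. The highest score in the Pcdhg 3′ stretch was 1299 (37835232 to 37836323), 15.7 kb after the Pcdhgc5 start. A run of 4 intervals with scores of 373, 630, 404 and 90 began 4.49 kb after that start. The last of them overlaps the lower end of the non-coding gene Gm29994. An interval with a score of 544 spanned the shared end of the Pcdhg genes (37841152 to 37842137), and another with a score of 839 followed 0.488 kb past it. If either gene end is allowed, these intervals mark all 21 Pcdhg genes at once, so that count says nothing about single genes.

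Acetylation went on beyond the Pcdhg cluster. The following 100 kb held 13 intervals. Among them was the one with a score of 544 that spans the cluster end, which was also counted in the cluster. Of the 13, 11 touched Diaph1, which encodes a formin that assembles actin filaments. Diaph1 had a score of 3997 at its upper end, and inside it an interval with a score of 3552 lay 37.7 kb past the Pcdhg cluster. Hdac3, a histone deacetylase gene whose lower end lies within the window, had none there and a score of 2822 at its upper end, which lies outside it. The 100 kb before the Pcdha cluster held 0 intervals.

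**Figure D5:**
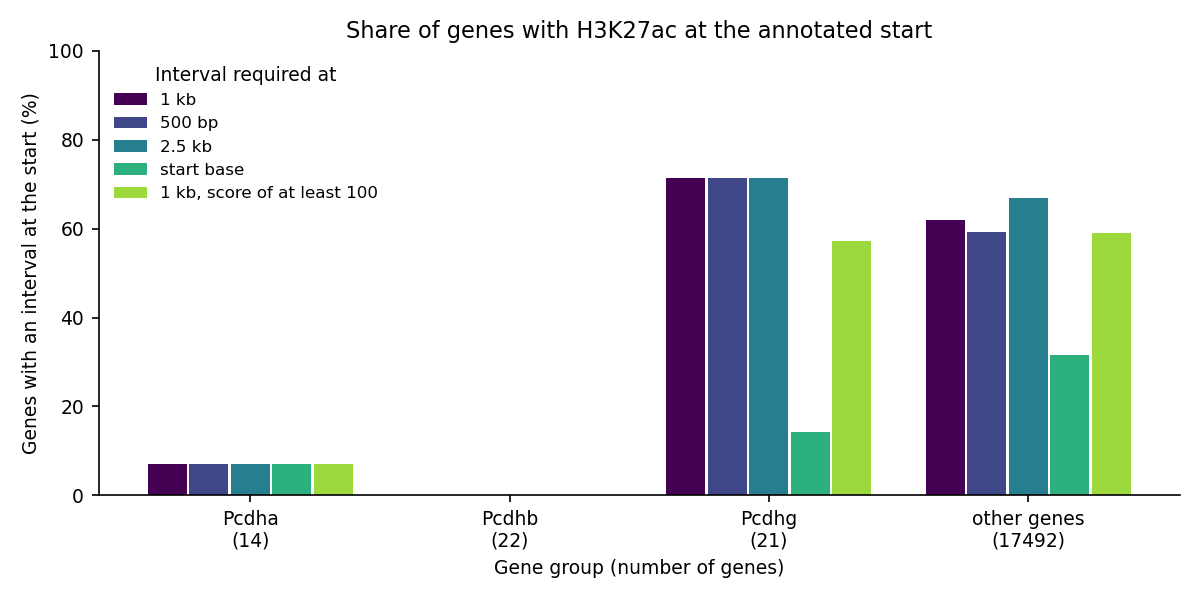
Bars give the percent of Pcdha, Pcdhb, Pcdhg and other protein-coding genes with an H3K27ac interval within 1 kb, 500 bp or 2.5 kb of the annotated start, on the start base itself, or within 1 kb with a score of at least 100. Pcdha stays at 7.14% and Pcdhb at 0% in all 5, while Pcdhg is at 71.4% in the 3 windows and at 14.3% on the start base.

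Cadherins outside the clusters were described from lists of related genes. Counts of the annotated start cover genes whose strand is known, and counts of either end cover all genes, for which the background was 65.1% (14213 of 21830). Of the non-clustered protocadherins 7 of 9 had an interval at the start, led by Pcdh18 with a score of 4612, Pcdh17 with 2097 and Pcdh10 with 938, and Pcdh8 and Pcdh9 had none. At either end it was 9 of 12. Classical and type II cadherins had an interval at the start in 7 of 12 and at either end in 14 of 20. They were led at the start by Cdh24 with 4823, while the mesenchymal cadherin Cdh11 had 3623 and neural cadherin, Cdh2, had 3286 at an end. Cdh26, Cdh8, Cdh15, Cdh6 and Cdh18 had none at the start. Among the giant cadherins of the Fat, Dachsous and Celsr families 4 of 7 had one at the start, with Fat4 at 2512, Celsr2 at 670 and Fat3 at 521, but not Fat1, Fat2 or Celsr3, and 7 of 9 at either end. The shares in these 3 lists were near the background, so they are not a result about the lists.

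Genes for proteins that act on the clusters or with their products were counted in the same way, against the same 62.0% at the start and 65.1% at either end. Factors known to organise or silence the clusters had an interval at the start in 8 of 11. Ctcf had a score of 11378, the cohesin gene Smc3 9274 and Smchd1, a silencing factor of the clusters, 5810, whereas Dnmt1, Dnmt3a and Stag1 had none. At either end it was 11 of 16, and Dnmt1, Dnmt3a, Stag1, Nipbl and Rad21 had none. Inner-cell partners, which include the WAVE complex that binds the tails of many protocadherins, had an interval at the start in 7 of 7 genes with a known strand, led by Wasf1 with 9637, Brk1 with 5766 and Pdcd10 with 4743. At either end it was 11 of 14, and Axin1, Abi2 and Ptk2b had none. Catenins and cadherin adaptors had one at the start in 6 of 7, led by Ctnnb1 with 9141, Vcl with 8182 and Jup with 2097, and Ctnnd1 had none. At either end it was 7 of 8. The shares at either end in these 3 lists ran from 68.8%, near the background, to 87.5%, and are not a result about the lists.

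The labelled cell type was checked against markers, at either gene end, where 65.1% of all other protein-coding genes had an interval. Of the cranial neural crest mesenchyme markers 14 of 15 had an interval, with scores from 87 at Prrx1 to 4697 at Prrx2, and Tfap2a had none. Neuronal markers, which matter here because clustered protocadherins are best known in neurons, had one in 7 of 11, a share near that background. Their scores ran from 81 at Elavl3 to 4646 at Elavl4, and Neurod1, Snap25, Stmn2 and Dcx had none. Schwann and glial markers had an interval in 6 of 6, endothelial markers in 5 of 5 with scores from 98 to 435, epithelial markers in 3 of 5, blood markers in 2 of 4 and myogenic markers in 2 of 4. The part of cells of these types in the Pcdhg intervals was not tested.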

How the data were processed

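H3K27ac was measured by chromatin immunoprecipitation sequencing in 4 wild-type libraries of E10.5. Per the text deposited with the list, the authors merged their alignments and called intervals with MACS2 2.1.3.3 (no model, shift 0, extension size 141 bp, all duplicates kept, q-value limit 0.001), and no control is named among the options. Bowtie 1.1.1, bcl2fastq 2.17 and the assembly names GRCm38 and mm10 are listed in the submitters' processing notes. The deposited list of 125826 intervals gives positions and 1 score per interval, with no fold enrichment. The lowest score is 31 and the median is 111. Depth is unknown. The other 24 libraries were not analysed here.

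Gene positions came from RefSeq tables of GRCm38.p6. Strand, known for 17492 other protein-coding genes from the RefSeq promoter table, was not in the tables for chromosome 18. Protocadherin starts were taken as the lower coordinate. The reason was that the Pcdhg genes, and the Pcdha genes other than Pcdha6, each share nearly the same upper end. Pcdha6 ends farther on, at 37188897, and sets the end of the Pcdha cluster used here. For the Pcdhb genes, which have separate ends, the same direction was assumed. A gene was marked when an interval overlapped the 1 kb on either side of its start by at least 1 bp. The call was tested on simulated intervals at known distances. All members are reported, c-type members by name, together with the other protein-coding genes between or beside the clusters; from the related lists come the 3 highest scores and minorities of at most 5, and Cdh11 and Cdh2 were chosen after their values were seen. A neuronal marker of the planned list is not reported here. Members and lists were chosen with earlier results of these data known. No test was made, since 1 pooled list has no replicates. Promoter composition, planned for these genes, was not analysed because the promoter table used here does not cover them. Python 3.11.15, pandas 2.3.3 and matplotlib 3.10.9 were used.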

Additional observations from a re-analysis of the deposited data

How the results depend on the processing

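The counts of marked Pcdha genes (1 of 14) and Pcdhb genes (0 of 22) were identical in all 7 alternatives, which were windows of 500 bp and 2.5 kb, the start base itself, scores of at least 100, the higher-scored 50% of intervals, 50% of the interval inside the window, and either gene end. The Pcdhg count was 15 of 21 in 3 of them, 12 with scores of at least 100 and in the higher-scored 50%, and 21 with either end. The smaller window, the start base, the score filters and the 50% overlap can only lower a count. A count of 0 could therefore not change under them. The score filters were close to each other, with limits of 100 and 111. On the start base itself, 4 of all 57 genes, 3 Pcdhg genes, 1 A-type gene and 1 B-type gene were left, against 31.6% of other genes. There the related lists fell as well, to 11.1% of non-clustered protocadherins, 16.7% of classical and type II cadherins, 0% of Fat, Dachsous and Celsr genes, 45.5% of architecture and silencing factors, 14.3% of inner-cell partners and 14.3% of catenins and adaptors. This setting asks more of an interval by construction. Counts of intervals per cluster, per 3′ stretch and over the region stayed within 1.5 times of the main values with each score limit, with midpoints in place of overlap and with flanks of 50 kb. No paired analysis was possible because the values come from 1 pooled list without a test. Without replicates or depth, an unmarked start means that no interval was called there, not that acetylation is absent.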

Other observations

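The pseudogene Pcdhgb8, which stands between Pcdhga11 and Pcdhga12 and was not counted among the 57 genes, had an interval of its own at its lower end with a score of 84. This score was below those of Pcdhga11 (150) and Pcdhga12 (121) on either side. At 142 bp the interval was also narrower than those at the marked A- and B-type genes, which began at 160 bp. The 3 read-through genes Gm37013, Gm38666 and Gm38667, which begin at Pcdha starts and end with the Pcdhg cluster, had no interval at their lower ends.

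Chromosomes 1 to 19 held 717 stretches of at least 300 kb without an interval, and 491 of them contained 0 complete protein-coding genes. Among these 491 was the stretch of 341 kb with 13 Pcdha starts, whose genes end outside it. The stretch over the Pcdhb cluster contained 23 complete genes, and 26 of the 717 stretches, itself included, contained as many or more. Most of the other gene-rich stretches lay over olfactory receptor genes, such as one of 1516 kb on chromosome 2 with 66 of them (88509217 to 90025292). Others lay over defensin, vomeronasal receptor, keratin-associated and Pramel genes, so the Pcdhb stretch stood among arrays of duplicated genes. How far alignment to duplicated sequence enters these stretches was not tested.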
